A study of Mus musculus with 2 samples.

Results

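Voltage-gated and potassium channel genes were located on the domain map of immediate neuronal precursor chromatin from the mouse olfactory epithelium. The members were the protein-coding genes of GENCODE M21 whose symbols begin with Kcn (potassium channels and their subunits), Cacna1 (pore-forming calcium channel subunits) or Hcn and a digit (pacemaker channels), or have the form Scn, a number and a final a (pore-forming sodium channel subunits). This rule gave 118 genes of the 21755 protein-coding genes on the 19 autosomes and chromosome X. The rule rests on symbols alone and uses no measured value. The members comprised 30 pore-forming and 10 modifying subunits of voltage-gated potassium channels, 15 inward rectifiers and 14 tandem-pore-domain (K2P) channels. A further 8 genes formed the class called here calcium- or sodium-activated potassium channels. That class was set by the symbols Kcnma, Kcnn, Kcnt and Kcnu and not by the gating of each member. The members also comprised 17 auxiliary potassium channel genes, 10 sodium channels, 10 calcium channels and 4 HCN channels.

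The assay was in situ Hi-C, in which DNA cut with the enzyme DpnII inside fixed nuclei is ligated, so that pairs of fragments lying close together are joined and counted. There was a single group, INP, the immediate neuronal precursor cell, with 2 biological replicates of 2200000 and 2100000 primary cells fixed in 1% formaldehyde. The cells came by FACS from pups of the strain FVB/NTac, of mixed sex, and both treatment and modification are labelled as None. The sorting protocol names Ngn1-GFP mice, so the sort rested on a fluorescent reporter named for Ngn1, and it describes its plots as those for immature olfactory sensory neurons. The number of pups pooled per replicate is not stated. The boundary list holds no expression, so the cell type could not be checked against its markers.

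Ion channels set the electrical behaviour of a neuron: sodium and calcium channels carry the inward current that depolarises the membrane, and potassium channels carry the outward current that repolarises it. HCN channels open when the membrane is hyperpolarised and bind cyclic nucleotides. Olfactory sensory neurons, the cells that these precursors become, fire action potentials carried by voltage-gated sodium channels, Scn9a among them. On the side of the genome, a domain boundary is a position across which Hi-C contacts are depleted, and the stretch between neighbouring boundaries is a contact domain.

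The authors' list gave 7841 boundaries on 5 kb intervals, each with a class and a score, the authors' own value for that boundary. Strong boundaries (4137) began at a score of 0.5 and weak ones (3704) at 0.2, and the median score was 0.533. Boundaries were called on the 2 replicates combined, so no value below has a replicate error and no test across replicates was possible. No test of gene positions was run. The contact depth is unknown. The intervals given with shares are 95% Wilson intervals, which take genes as independent and so cover counting error only. Every share is set beside that of all protein-coding genes as a description.

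Channel gene starts were found near boundaries about as often as protein-coding starts in general. The gene start, the 5′ end of the gene model, lay within 10 kb of a boundary interval for 16 of the 118 channel genes, 13.6% (8.52 to 20.9%), against 16.4% of all protein-coding genes. Moving the boundaries along each chromosome by every possible whole number of 5 kb bins of at least 1 Mb gave a mean share of 7.81% for channel genes and 7.75% for all protein-coding genes. The observed share was thus 1.74 times its shifted mean for channel genes and 2.12 times for all protein-coding genes. Against strong boundaries alone the count was 12 members, 10.2%, against 10.6% of all genes. The start lay inside a boundary interval for 5 members, 4.24%, against 5.07% of all genes. The median distance was 53.5 kb for channel genes, with quartiles of 26.0 and 89.4 kb, and 55.3 kb for all protein-coding genes, with quartiles of 21.4 and 102 kb.

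**Figure D1:**
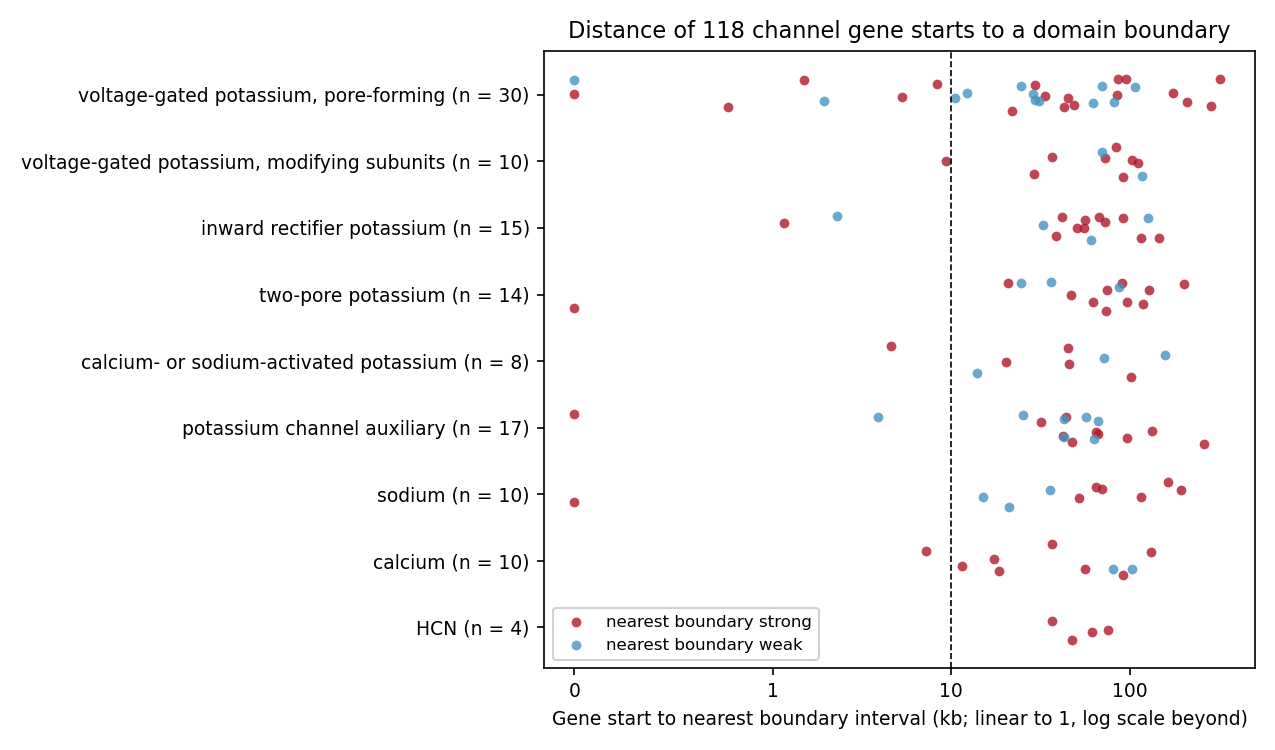
Distance in kb from each gene start to the nearest boundary interval (horizontal axis) for the 118 channel genes in rows by class. Points are genes, coloured by whether the nearest boundary is strong or weak, the axis is linear to 1 kb and logarithmic beyond, and the dashed line marks 10 kb. The 16 members to its left come from all classes except HCN, and class medians run from 32.3 kb for pore-forming voltage-gated potassium channels to 77.9 kb for the modifying subunits.

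The pore-forming voltage-gated potassium channels, which repolarise the membrane after a depolarisation, supplied 7 of the 16 near starts. These are 7 of their 30 genes, 23.3% (11.8 to 40.9%), an interval that contains the 16.4% of all protein-coding genes. Kcnh1, an ether-à-go-go channel, had the highest-scoring boundary of all near members. It lies 0.774 kb upstream of the start, at chr1:192185001-192190000 in GRCm38, with a score of 1.54. Kcnd2, which encodes an A-type channel of dendrites, had its start inside the boundary at chr6:21215001-21220000, with a score of 0.659. The boundary of Kcnc1, a fast delayed rectifier, lay 1.5 kb upstream of the start, with a score of 0.671. Kcnh5, a second ether-à-go-go gene, started inside a weak boundary with a score of 0.303.

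Kcnq3 and Kcnq5, whose products contribute to the M-current that restrains repetitive firing, also had near starts, with different geometry. The boundary of Kcnq3, with a score of 0.592, lay 8.36 kb upstream of the start. At Kcnq5 a weak boundary of 0.311 lay 1.94 kb downstream. Kcnq1, of the same family, was farther away: the nearest boundary to Kcnq1 lay 48.6 kb downstream of its start, with a score of 0.811.

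Each of the remaining classes had 2 near starts or fewer. Among the inward rectifiers, which set the resting potential, Kcnj2 had a boundary of 0.623 at 1.16 kb upstream. Kcnj6, a G-protein-gated rectifier, had the lowest-scoring boundary of the near members, 0.213, at 2.3 kb upstream. The K2P channel gene Kcnk18, of a class that carries background leak current, started inside a boundary with a score of 0.712. Kcnu1, a sperm potassium channel gene, had a boundary of 0.624 at 4.62 kb, and that boundary overlapped the neighbouring gene Ash2l. The modifying subunit gene Kcng4 had a boundary of 0.722 at 9.32 kb upstream. Among the auxiliary genes, Kcne2 started inside a boundary with a score of 0.855, and Kcnmb4, a beta subunit of the large-conductance calcium-activated channel, had a weak boundary of 0.309 at 3.88 kb downstream.

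Scn1a alone among the 10 sodium channel genes had a near start, and Cacna1s alone among the 10 calcium channel genes. Scn1a, a sodium channel gene of the central nervous system, started inside a strong boundary of 1.36 at chr2:66440001-66445000. Cacna1s, the calcium channel of skeletal muscle, held a boundary of 0.561 at 7.25 kb downstream of its start. None of the 4 HCN genes was within 10 kb. The nearest boundary lay at 36.6 kb from Hcn2 (score 0.834), 61.6 kb from Hcn4 (0.880) and 75.2 kb from Hcn3 (0.577).

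Most of these near boundaries had no other protein-coding start close by. The channel gene was the only protein-coding start within 10 kb of its boundary for 13 of the 16, 81.3%, against 55.2% of all protein-coding genes with a near start. The near channel genes also had fewer neighbours, with a median of 1 other protein-coding start within 100 kb, against 3 for all near genes. The exceptions were Kcne2, which shared its boundary with Smim11, Kcnu1 with Ash2l, and Cacna1s with Ascl5. The boundary was strong for 12 of the 16, 75%, against 64.6% of all near genes, and the median scores were 0.642 for channel genes and 0.661 for all near genes. Over all 118 members the nearest boundary lay upstream of the start for 70 genes, 59.3%, against 49.1% of all protein-coding genes, and it was strong for 82 genes, 69.5%, against 64.1%. Just outside the limit were Kcnc4 at 10.4 kb and Cacna1d at 11.5 kb.

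The promoters of 2 members that start inside a strong boundary are printed because they are the sequences that sit on the boundary itself, and because they differ in base composition. Each runs from 250 bases before to 50 bases after the RefSeq start in GRCm38.p6, on the strand of the gene, and capitals mark CG dinucleotides.
Scn1a (chr2:66440788-66441087, minus strand): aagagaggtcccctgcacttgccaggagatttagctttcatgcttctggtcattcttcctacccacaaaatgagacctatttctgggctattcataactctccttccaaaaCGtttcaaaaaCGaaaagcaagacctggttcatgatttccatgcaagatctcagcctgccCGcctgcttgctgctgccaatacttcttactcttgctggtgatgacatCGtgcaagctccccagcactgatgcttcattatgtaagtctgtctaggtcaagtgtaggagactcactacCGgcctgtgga
Kcnd2 (chr6:21215096-21215395, plus strand): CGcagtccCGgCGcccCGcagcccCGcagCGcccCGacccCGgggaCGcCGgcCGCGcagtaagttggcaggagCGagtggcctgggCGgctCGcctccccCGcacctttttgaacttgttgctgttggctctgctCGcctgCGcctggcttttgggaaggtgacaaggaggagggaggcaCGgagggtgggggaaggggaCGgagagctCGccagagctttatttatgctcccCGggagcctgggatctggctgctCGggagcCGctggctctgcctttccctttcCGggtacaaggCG
The Scn1a window holds 5 CG dinucleotides at 47.3% GC, and the Kcnd2 window holds 26 at 68.7% GC. The median of 32851 RefSeq promoter windows was 7, with quartiles of 3 and 20. The Scn1a window thus lay within these quartiles and the Kcnd2 window above them, and both starts lie inside a strong boundary. Windows of the same size at the GENCODE starts held a median of 19 CG dinucleotides for the 16 near members, against 17 for all near genes.

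Counting every annotated transcript start raised the near members to 21, 17.8%, against 20.8% of all protein-coding genes. The added genes all had a boundary deep in or at the far end of the gene, next to a shorter transcript. Cacna1a, which carries P/Q-type calcium current, had a transcript start inside a boundary with a score of 0.977. Cacna1c, an L-type channel gene, had one at 0.426 kb from a boundary of 0.965. Kcnma1, the large-conductance calcium-activated potassium channel, had one at 0.203 kb from a boundary of 1.31. Kcnd3 and Kcnn2 were the others, at 4.01 and 0 kb.

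Related genes outside the rule gave shares of the same order or lower. Of the auxiliary subunits of sodium and calcium channels, 1 of 20 genes (5.0%) started within 10 kb of a boundary. The count was 5 of 53 (9.43%) among TRP, cyclic-nucleotide-gated and other relatives of the voltage-gated channels together with chloride channels. Among ligand-gated channels it was 8 of 67 (11.9%). Their median distances were 106.3 kb, 45.4 kb and 76.2 kb in the same order.

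The long channel genes were divided by boundaries within their own transcribed length. A boundary overlapped the gene body of 25 of the 118 channel genes, 21.2% (14.8 to 29.4%), against 17.7% of all protein-coding genes, and 2 or more did so in 7 members, 5.93%, against 1.1%. All 7 are 300 kb or longer, and among genes of that length the share was 41.2%, against 33.2%. Channel genes are long, with a median of 42.5 kb against 17.4 kb, and within each length class their share with at least 1 boundary was below that of all genes. For genes of 300 kb or more it was 12 of 17, 70.6%, against 79.9%. From 100 to 300 kb it was 6 of 20, 30.0%, against 44.1%, and from 20 to 100 kb 5 of 41, 12.2%, against 20.2%. Under 20 kb it was 2 of 40, 5.0%, against 8.68%. Over all gene bodies together, channel genes held 2.09 boundaries per Mb and all protein-coding genes 3.14 per Mb. In genes of 300 kb or more the values were 2.42 and 2.27 per Mb, while channel genes were lower in each shorter class. There the values were 1.09 against 2.58 from 100 to 300 kb, 2.49 against 3.54 from 20 to 100 kb, and 2.62 against 6.51 under 20 kb.

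**Figure D2:**
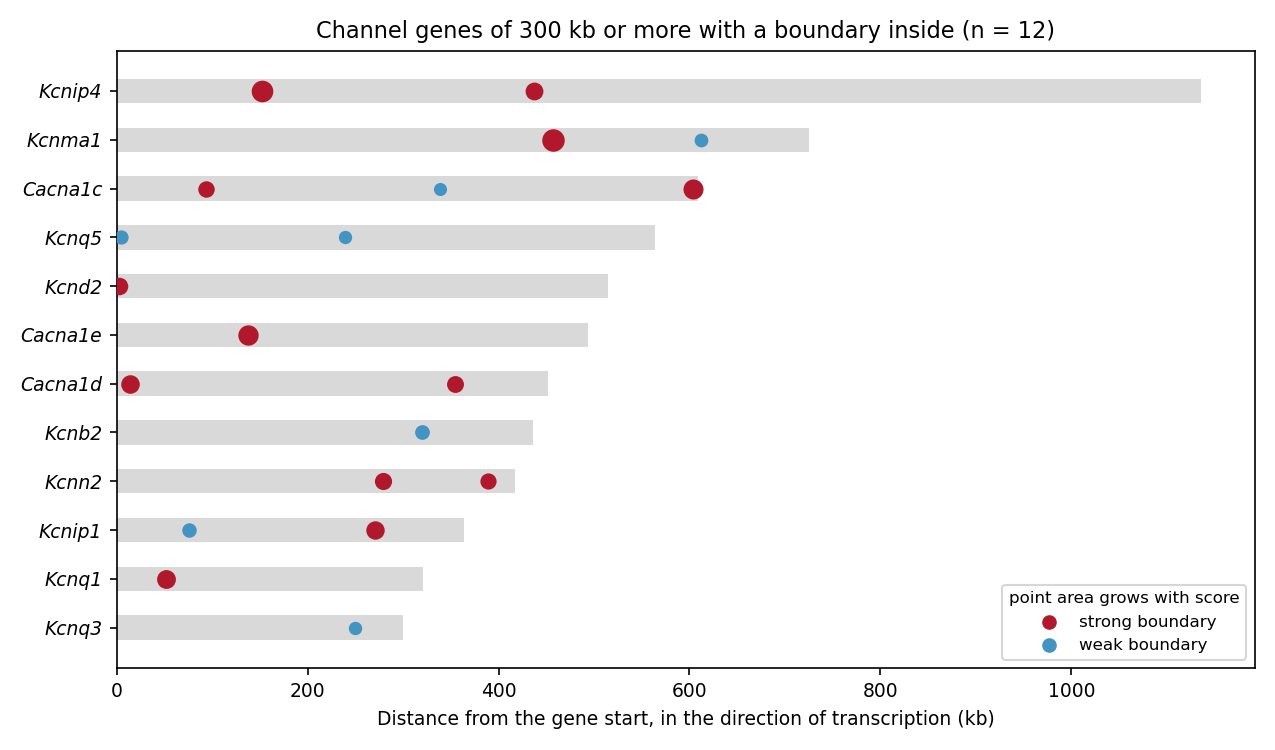
Position of each boundary along the 12 channel genes of 300 kb or more that hold one, in kb from the gene start, with point area growing with score and colour giving the class. Among the longest, Kcnip4 and Kcnma1 hold 2 boundaries each and Cacna1c holds 3.

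The calcium channel genes held such boundaries most often among the classes, in 5 of 10 genes (23.7 to 76.3%). Their median gene length, 135 kb, was also the highest among the classes. Cacna1c, 609 kb long, held 3: one of 0.536 at 91.4 kb from its start, a weak one of 0.206 at 336 kb, and a strong one of 0.965 at 601 kb that overlapped an exon and untranslated sequence. Cacna1d, also an L-type gene, held a boundary of 0.778 at 11.5 kb and one of 0.582 at 351 kb, both in introns. Cacna1e, which encodes the R-type channel, held one of 1.01 at 134.5 kb. The Cacna1a boundary lay at the other end of its gene, 0.246 kb from the 3′ end.

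More than 1 boundary also fell in genes of the calcium-activated and auxiliary classes and in 1 Kcnq gene. Kcnma1, 725 kb long, held a strong boundary of 1.31 at 454 kb and a weak one of 0.266 at 609 kb. In Kcnn2, a small-conductance calcium-activated channel gene, the 2 boundaries of 0.613 and 0.507 lay at 276 and 386 kb. Kcnip4, the longest member at 1135 kb and a calcium-sensing partner of A-type channels, held strong boundaries of 1.18 at 150 kb and 0.688 at 435 kb. Its relative Kcnip1 held a weak boundary of 0.333 at 73.2 kb and a strong one of 0.762 at 268 kb. Kcnq5 held, besides the one near its start, a weak boundary of 0.226 at 237 kb. No boundary overlapped any of the 15 inward rectifier genes, the 10 modifying subunit genes or the 4 HCN genes. Median gene lengths in these classes were 26.7, 13.2 and 29.6 kb in the same order. Kcnh7, Kcnh8, Kcnt2 and Kcnh1 also held none, although each is 300 kb or longer.

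**Figure D3:**
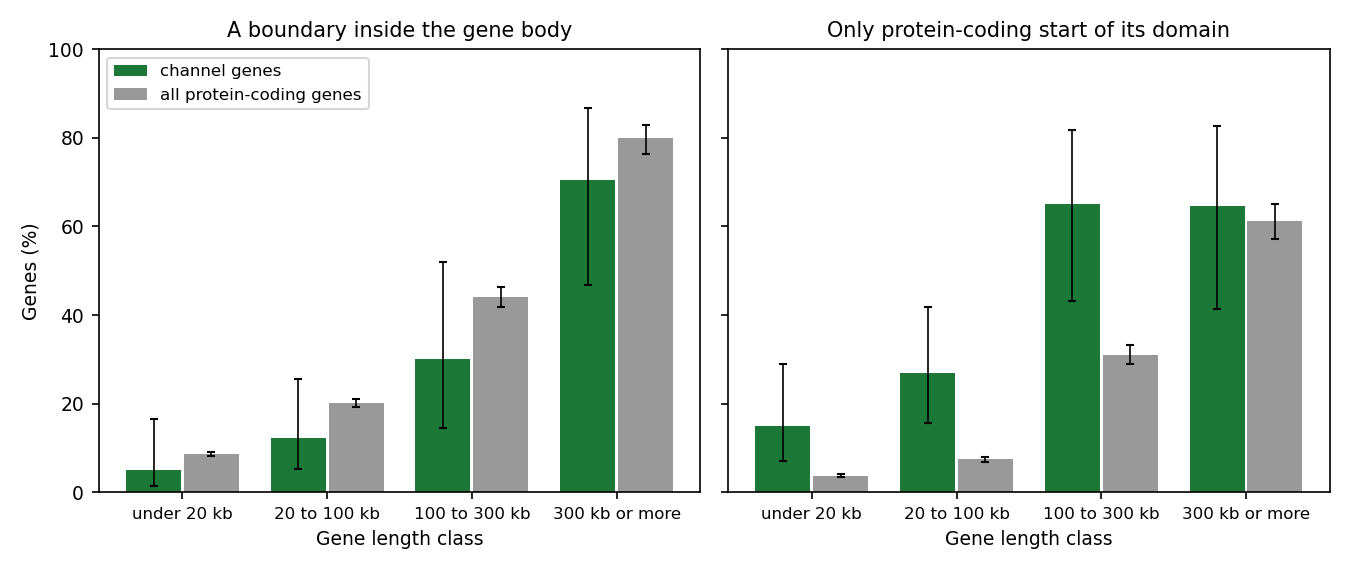
Percentage of channel genes and of all protein-coding genes, by gene length class, with bars from 0 and 95% Wilson intervals, for a boundary within the gene body and for being the only protein-coding start of a domain. Channel genes lie below all genes for the first measure in every length class (70.6% against 79.9% at 300 kb or more) and above for the second (65.0% against 31.1% from 100 to 300 kb).

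In all, 33 pairs of a channel gene and an overlapping boundary were found, of which 20 boundaries were strong. The interval lay in introns alone in 22 pairs and overlapped an exon in 11. In 12 members, 10.2%, against 5.55% of all protein-coding genes, a whole interval lay inside the gene and at least 10 kb from both ends, in 18 pairs. Within length classes the share was lower for channel genes: 64.7%, against 73.4%, at 300 kb or more, 5.0%, against 26.0%, from 100 to 300 kb, and 0%, against 3.85%, from 20 to 100 kb. Of those 18, 16 lay in introns alone and 11 were strong, with a median score of 0.559. The 1423 boundaries lying that deep in any protein-coding gene were strong in 50% of cases, with a median score of 0.50. Of 2 members in imprinted loci, Kcnq1 held a strong boundary of 0.811 in an intron, and Kcnk9 held a weak one of 0.410 at 3.91 kb from its 3′ end.

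The 12-base CTCF core consensus, the core of the motif bound by the protein CTCF, was searched on both strands of each interval because CTCF is best known for binding at domain boundaries. It was found in 3 of the 33 boundaries in channel gene bodies, 9.09% (3.14 to 23.6%), and in 0 of the 16 boundaries near a channel gene start, which allows a share of up to 19.4%. The share was 6.90% of all 7841 boundaries and 2.41% of all assembled 5 kb bins. The 3 matches are printed with 24 bases on each side, in GRCm38 and on the minus strand, with the core in capitals.
Cacna1c (chr6:119104442-119104501): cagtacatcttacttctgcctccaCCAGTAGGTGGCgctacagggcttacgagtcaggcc
Kcnip1, nearer its 3′ end (chr11:33721477-33721536): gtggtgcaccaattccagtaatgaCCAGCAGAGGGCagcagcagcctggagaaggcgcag
Kcnip1, nearer its start (chr11:33917741-33917800): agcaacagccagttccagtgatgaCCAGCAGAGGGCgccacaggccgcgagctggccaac
All 3 lie in introns, and both Kcnip1 matches hold the same 12 core letters. The Cacna1c boundary is the one of 0.536 at 91.4 kb from its start.

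Many channel gene starts were assigned to a contact domain with no other protein-coding start. A domain is taken here as the stretch between the facing edges of neighbouring boundaries, and a start inside a boundary goes to the side of the interval's midpoint on which it lies. The domain is thus that of the start and may hold only part of the gene. Kcnip4, the only start of its domain, has a domain of 175 kb and a gene of 1135 kb. The domain of Kcnd2 by midpoint lies on the side away from its gene body. The channel gene was the only protein-coding start of its domain for 41 of the 118 members, 34.7% (26.8 to 43.7%), against 8.92% of all protein-coding genes. With starts inside a boundary placed on the side of the gene body instead, it was 38 members, 32.2%, against 8.88%. Channel genes are also long and have few neighbours: their median number of other protein-coding starts within 100 kb was 2, against 3. In the class from 100 to 300 kb the share was 65.0%, against 31.1%, while at 300 kb or more it was 64.7%, against 61.2%. Among genes with no other start within 100 kb it was 29 of 38 members, 76.3%, against 51.7%. Among genes with at least 1 such neighbour it was 12 of 80 members, 15%, against 2.82%.

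By class, the only start of a domain was the channel gene for 13 of the 30 pore-forming voltage-gated potassium channels, 5 of the 10 modifying subunits and 6 of the 15 inward rectifiers. It was so for 6 of the 10 sodium channels, 3 of the 10 calcium channels and 1 of the 4 HCN genes. The counts were 2 of 14 K2P, 2 of 8 calcium- or sodium-activated and 3 of 17 auxiliary genes. Among the related lists it was 6 of 20 auxiliary sodium and calcium subunits (30.0%), 16 of 67 ligand-gated channels (23.9%) and 4 of 53 other relatives (7.55%).

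The sodium channel genes stand in tandem arrays, and boundaries fell between most of the neighbours. On chromosome 2, Scn3a and Scn2a, whose starts point away from each other 53.1 kb apart, shared a domain of 410 kb at 65375001-65785000, with boundaries of 0.882 and 0.606 at its ends and no other protein-coding start inside. Farther along, Scn1a, Scn9a and Scn7a lay in 3 adjacent domains of 180, 205 and 200 kb, each alone. The boundary between Scn1a and Scn9a was the strong one of 1.36 in which Scn1a starts. The one between Scn9a, a sodium channel of sensory neurons, and Scn7a, an atypical sodium-sensing member, was weak at 0.384, and lay 15 kb upstream of the Scn9a start. The far edge of the Scn7a domain scored 0.687.

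A like order was seen on chromosome 9. Scn10a and Scn11a, both sodium channel genes of nociceptive neurons, lay in consecutive domains of 150 and 130 kb, each the only protein-coding start. The boundary between them scored 0.318, and the one at the other edge of the Scn10a domain scored 0.493. Both were weak, and the one of 0.318 overlapped the 3′ part of Scn11a, 1.24 kb from its end. The outer edge of the Scn11a domain scored 0.928. Outside the arrays, Scn4a, of skeletal muscle, lay in a domain of 125 kb with 5 starts, and Scn8a, of central and peripheral neurons, in one of 385 kb with 6 starts.

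**Figure D4:**
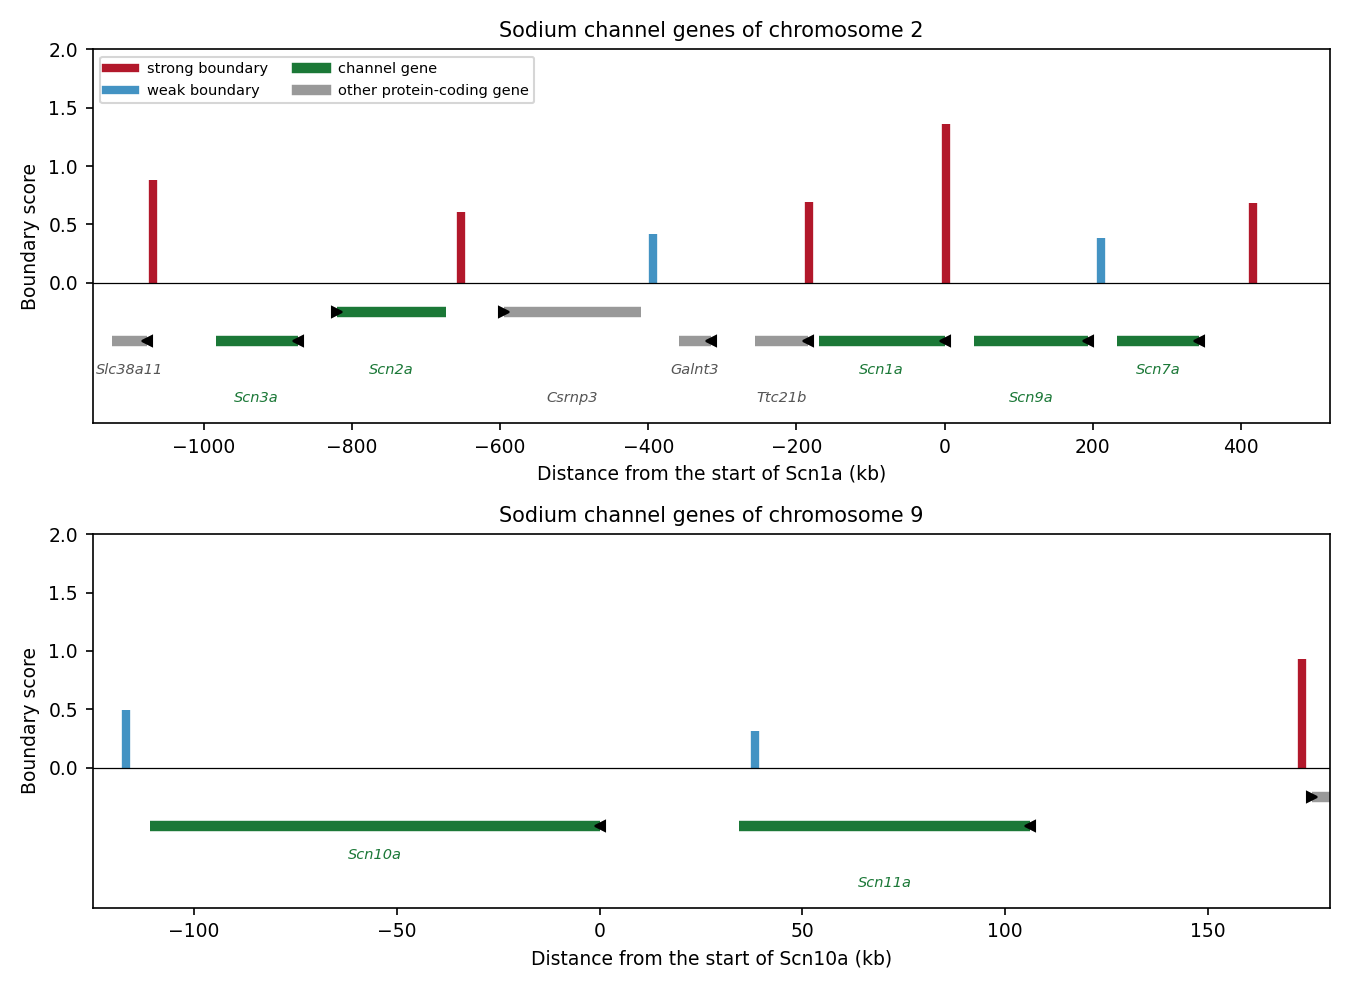
Maps of sodium channel genes on chromosomes 2 and 9, with distance in kb along the horizontal axis, gene bodies as bars and boundaries as vertical lines whose height is the authors' score, strong in red and weak in blue. The starts of Scn1a, Scn9a, Scn7a, Scn10a and Scn11a were each assigned to a separate domain, while those of Scn3a and Scn2a share one. The 3′ end of Scn11a reaches past the boundary between it and Scn10a.

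Over all classes, 34 members stood in 14 groups with neighbouring starts at most 300 kb apart, which gave 20 neighbouring pairs. A boundary lay between the starts in 13 of the 20 pairs, and the highest-scoring one was strong in 7 of those. At gaps of 50 kb or less 0 of 3 pairs had one, against 12.5% of all pairs of protein-coding starts, and at 50 to 100 kb 3 of 7 did, against 30.4%. At 100 to 200 kb 5 of 5 had one, against 55.8%, and at 200 to 300 kb 5 of 5, against 78.3%. No other protein-coding start lay between the genes in 15 of the pairs, of which 8 were separated. At gaps of 100 to 200 kb the 5 such channel pairs were all separated, against 49.9% of all adjacent protein-coding starts, and these 5 included all 4 sodium channel pairs with a boundary between them. At gaps of 50 to 100 kb 2 of 6 were separated, against 26.9%. At 50 kb or less the figure was 0 of 3, against 9.68%, and at 200 to 300 kb 1 of 1, against 68%.

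Most Shaker-related (Kcna) potassium channel genes, whose channels limit excitability, stand in arrays on chromosomes 3 and 6, while Kcna4 on chromosome 2 and Kcna7 on chromosome 7 stand outside any such group. On chromosome 3 a weak boundary of 0.303 lay between Kcna3 and Kcna2, while Kcna2 and Kcna10 shared a domain of 135 kb that ended at a strong boundary of 0.778. Kcnc4 followed beyond a second boundary, alone in a domain of 115 kb. On chromosome 6, Kcna5 lay alone in the shortest domain of any member, 80 kb, and a weak boundary of 0.464 set it apart from Kcna1 and Kcna6, which shared 205 kb.

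The inward rectifier pairs were of both kinds. Kcnj9 and Kcnj10, 11.9 kb apart, shared a domain of 225 kb with 8 starts, and Kcnj5 and Kcnj1, 28.1 kb apart, shared one of 170 kb that held no other start. Between Kcnj16 and Kcnj2 lay the strong boundary of 0.623 close to the Kcnj2 start. Kcnj6 and Kcnj15, 259.9 kb apart, had 2 boundaries between them, the higher at 0.561. Kcnj14 and Kcnj11 had one of 1.14, with 9 other starts between the genes. From Kcnj11 to Kcnc1, 295.7 kb, there were 2 boundaries, one of them the 0.671 boundary of Kcnc1.

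Of the other pairs, the K2P genes Kcnk5 and Kcnk16 shared a domain of 205 kb bounded by scores of 1.14 and 1.61. Kcnmb1, whose start lies within the Kcnip1 gene, shared a domain of 105 kb with the Kcnip1 start. Kcne2 and Kcne1 counted as separated because the Kcne2 start lies inside the boundary of 0.855, on the far side of its midpoint. The body of Kcne2 lies on the side of Kcne1, and by gene body both would share a domain of 205 kb. On chromosome X a weak boundary of 0.398 lay between Cacna1f, a retinal calcium channel gene, and Kcnd1, with 11 other starts between them.

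**Figure D5:**
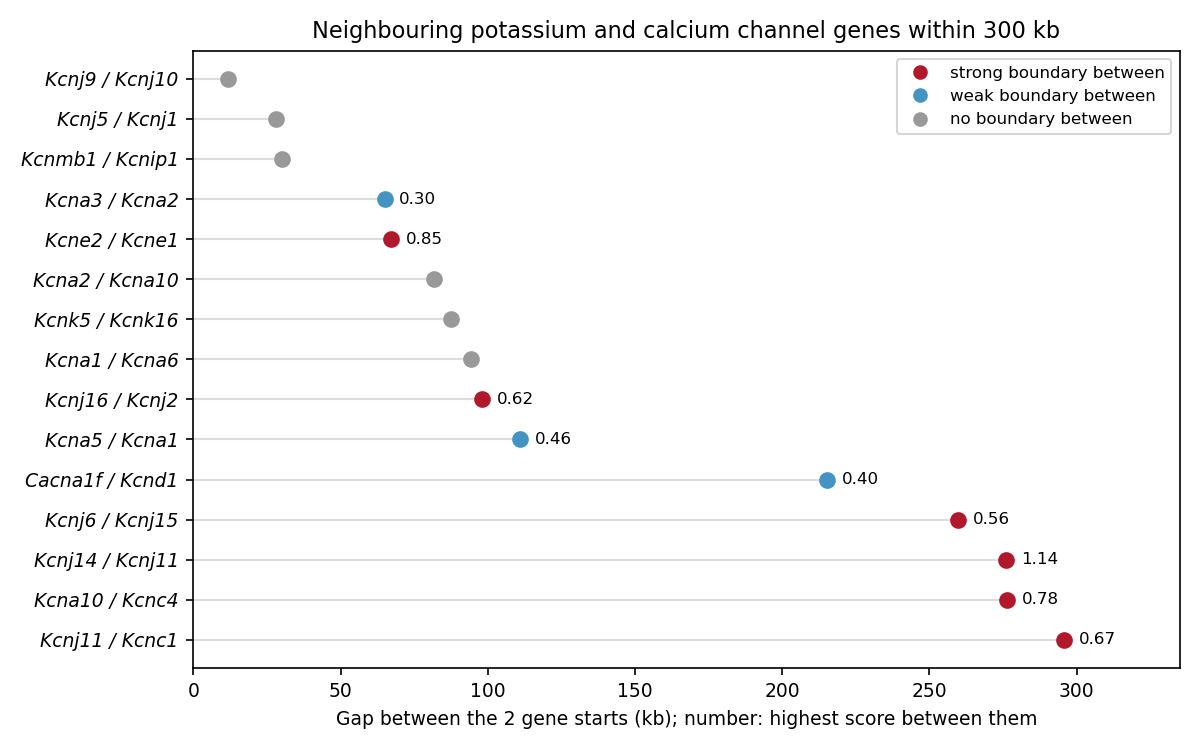
Distance in kb between the starts of the 15 neighbouring potassium and calcium channel gene pairs, with the highest boundary score between them printed beside the point, and pairs with no boundary in grey. The pairs at 100 kb or more all have a boundary, and those at 50 kb or less have none.

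The domains of channel genes had a median length of 230 kb, with quartiles of 181 and 355 kb, against 270 kb with quartiles of 190 and 390 kb for all protein-coding genes. The 95% interval of the channel median, 215 to 275 kb, contains 270 kb. These medians count a domain once for each gene that starts in it. With each such domain counted once, they were 240 kb for channel genes and 250 kb for all protein-coding genes. The channel gene domains numbered 111, and 7 held 2 members. Both edges were strong for 50 members, 42.4%, against 38.1%. The longest were those of Kcna4 (995 kb), Kcnh7 (820 kb), Kcne4 (720 kb) and Kcnv2 (710 kb). Apart from Kcna5, the shortest held Kcnmb1 and Kcnip1 (105 kb), Kcnc4 (115 kb), and Kcne3, Kcnmb4 and Kcnrg (120 kb each). Domains of 120 kb or less held these 7 members, 5.93%, against 4.36% of all genes. Domains of 700 kb or more held 4 members, 3.39%, against 7.2%.

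The starts farthest from any boundary were those of Kcna4 at 320.6 kb, Kcnh7 at 285.7 kb, Kcnab1 at 259.4 kb, Kcnd3 at 207.7 kb and Kcnk7 at 200.6 kb. These are an A-type and an ether-à-go-go-related channel gene, a beta subunit gene, a second A-type gene and a K2P gene. For Kcnd3 and Kcnab1 the distance shortens to 4.01 and 36.2 kb when every transcript start is used. Scn3a, a sodium channel gene of developing neurons, was 192.6 kb from its nearest boundary, and Cacna1h, a low-threshold calcium channel gene, was 56.2 kb from one of 0.693. The start of Kcnma1 was 45.5 kb from one of 0.717.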

How the data were processed

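The authors combined the contact lists of the 2 replicates, per the series' design text, on GRCm38 per the submitters' processing notes, and deposited a boundary list with a class and a score per 5 kb interval. The caller is not given in the sources used here. Contact matrices and signal tracks were not analysed here.

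Genes came from GENCODE M21, sequence from GRCm38.p6 and promoters from RefSeq. The 196 protein-coding genes on chromosomes Y and M were left out. Distances ran from the gene start to the interval's edge (0 inside), and shifts used bins at least 50% assembled. Python 3.11.15, numpy 2.4.6, scipy 1.17.1 and Biopython 1.88 were used. Distances, overlaps, the assignment of domains and the mean over shifts were tested on simulated data. No p was computed.

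Members and lists were chosen with earlier results of these data known. Named were all members within 10 kb, with 2 or more body boundaries, in groups within 300 kb, or at the extremes of distance and domain length (5 each, ties kept), the HCN genes and Scn9a, Scn3a, Kcnq3, Kcnma1 and Cacna1h. Others were named after their values were seen: Kcnc4 and Cacna1d by the limit, Cacna1a, Cacna1e, Kcnq1, Kcnk9, Kcnd3, Kcnh8, Kcnt2, Kcna7, Scn4a and Scn8a. The Scn1a promoter was printed for its boundary score, the highest among starts inside an interval, and that of Kcnd2 for its contrast in composition, after its values were seen. A few members are counted but not reported by name here. Alternatives were strong boundaries, other distances, merging, transcript starts and chromosome X left out.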

Additional observations from a re-analysis of the deposited data

How the results depend on the processing

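Of 32 alternative values, 17 stayed near the reported one and 15 moved. The share of channel starts near a boundary was 4.24% at 0 kb (5.07% of all genes), 24.6% within 25 kb (27.8%) and 48.3% within 50 kb (46.3%) in place of 10 kb, so at 50 kb it lay above that of all genes and not below. With the nearest start alone kept per boundary, the median distance was 48.6 kb, against 12.9 kb, and the near share 14.4%, against 45.6%; this choice keeps close starts by construction and does so more where many genes share a boundary. From any transcript start the median distance was 42.7 kb (46.0 kb for all genes). It was 85.5 kb to strong boundaries (99.0 kb for all genes) and 91.3 kb to boundaries at or above the median score (105 kb). The count of genes with a boundary inside was 16 of 118 with strong boundaries, against 11.2% of all genes. At or above the median score it was 16 of 118, against 10.7%. It was 12 of 118, against 5.55%, when the whole interval had to lie 10 kb or more from both ends. The median domain was 435 kb under either score limit. For all genes it was 475 kb with strong boundaries and 510 kb at or above the median score. The share of genes that were the only start of their domain was 22% with strong boundaries (3.69% of all genes) and 20.3% at or above the median score (3.26%), and separated pairs numbered 7 under either; these 2 results and their alternatives were added after seeing the data. Separated pairs numbered 11 where the whole interval had to lie between the starts. No all-gene value was computed for these alternative pair counts. Merging boundaries within 50 kb could change nothing, since the shortest domain is 55 kb, and is not counted above. Leaving out a replicate was not possible, since both were pooled before calling. No paired analysis was possible because the list has no replicate columns. Depth limits every value by an unknown amount.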
